A study of Mus musculus with 19 samples.

Results

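Expression of 6 sterol and lipid synthesis genes was followed in FDCPmix cells, a mouse blood progenitor line, after tamoxifen. The genes were Hmgcs1, Fdps, Tm7sf2, Srebf2, Scd2 and Lpin1, taken as every probe annotated with 1 of these symbols and with no other. This gave 10 of the 20205 probes on the array and 6 of the 9834 genes it names. Hmgcs1 and Scd2 had 2 probes each, Lpin1 had 3, and the others had 1.

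Each of the 19 two-colour arrays carried RNA of treated cells, its own RNA, against a reference RNA in the second dye. The 5 groups were treated cells with no stated time (4 arrays, against non-treated cells) and treated cells at 3 h, 7 h and 12 h (4 arrays each) and 23 h (3 arrays), all against treated cells at 0 h. The own RNA was in Cy5 on 2 and in Cy3 on 2 arrays of each group of 4, and at 23 h in Cy5 on 1 and in Cy3 on 2. Every sample is labelled as FDCPmix and also as an ES cell line, words that the sources used here do not explain, and no label names a genotype, an allele, a tamoxifen dose or a protein on which tamoxifen acts in these cells. All samples come from 1 line, the label protocols speak of organs and of a reference pooled from animals, and nothing says that replicates were separate cultures, so p-values measure only the spread between these arrays. Replicate 2 at 23 h was not analysed here.

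The deposited values are log ratios whose base and numerator the sources used here do not give. They were read as log2 of own RNA over reference, so that a value below 0 means less RNA in the cells named first; this direction is likely but assumed. Each array repeats 1 extreme value, whose sign went with the dye of the own RNA (Cy5 positive, Cy3 negative) on 18 arrays and not on 1. That bears on whether the columns were turned, not on which RNA is the numerator. Over all features the mean signs of opposite-dye arrays matched for 47.4% in the treated group, 55.6% at 3 h, 49.8% at 7 h, 43.7% at 12 h and 45.7% at 23 h. Because the direction is not settled, fitted values with every Cy3 array turned in sign are given beside the treated, 3 h and time course results.

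Before the results, 2 arrays stand apart. On 7 h replicate 4 the repeated extreme value had the sign opposite to its dye label, and the array correlated with 7 h replicate 3, of the same dye, at r = -0.15 over all features. Replicate 3 at 23 h had a deposited median of 0.23, against -0.012 to 0.024 on all other arrays. It correlated with 23 h replicate 4, of the same dye, at r = -0.08 and with replicate 1, of the opposite dye, at -0.15. Within groups r averaged 0.096 for the same dye and -0.031 for opposite dyes. Treated replicates 2 and 3, of opposite dye, were at -0.145, so an opposite-dye r of this size does not by itself set an array apart. Both arrays, 7 h replicate 4 and 23 h replicate 3, were kept. Values without both are given at each time, with 2 arrays left at 23 h. Leaving out arrays that correlate poorly with their group lowers the spread, which by itself favours more calls. Spread over spots was larger on the treated arrays (SD 0.62 to 0.64) than in the time course (SD 0.24 to 0.36), so the treated arrays were fitted alone. Cell identity could not be checked, since a ratio gives no level: no gene of the progenitor, erythroid, neutrophil, monocyte, mast cell, pluripotent or fibroblast marker lists passed adjusted p = 0.05 with limma in any comparison with all arrays kept.

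Cells build cholesterol from acetyl-CoA through the mevalonate pathway, whose isoprenoid products feed both sterols and lipid anchors on proteins. When sterols in the endoplasmic reticulum are low, the membrane-bound SREBP proteins are carried to the Golgi apparatus by Scap, are cut there, and the freed part enters the nucleus and raises transcription of the sterol and fatty acid enzymes. SREBP acts at sterol regulatory elements, usually with the factors NF-Y, which binds CCAAT boxes, and Sp1, which binds GC boxes. Growing blood progenitors use the pathway to supply new membrane.

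Hmgcs1 encodes HMG-CoA synthase of the cytosol, an early enzyme of the mevalonate pathway (chr13:119690351-119708260, GRCm38.p6, as are all positions here). Fdps encodes farnesyl diphosphate synthase, which makes the precursor of sterols and of protein prenyl groups (chr3:89093588-89101967). Tm7sf2 encodes a sterol C14 reductase of the later, sterol-ring part of the route (chr19:6062821-6067850). Srebf2 encodes SREBP-2, the main activator of the cholesterol genes (chr15:82147269-82205379). Scd2 encodes a stearoyl-CoA desaturase that places the double bond of monounsaturated fatty acids (chr19:44293676-44306864). Lpin1 encodes lipin 1, a phosphatidate phosphatase that makes diacylglycerol for triglycerides and phospholipids (chr12:16535669-16653903).

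Promoter windows, from 250 bases before to 50 bases after the annotated start, are shown for Hmgcs1, Srebf2 and Tm7sf2 because these are an enzyme, the regulator and the sterol enzyme whose ratio had the opposite sign on the treated arrays. RefSeq windows were matched for 4 of the 6 genes, also Lpin1, and not for Fdps and Scd2. Capitals mark matches, on either strand, to the sterol regulatory element TCACNCCAC and to the CCAAT box, which reads ATTGG when it lies on the opposite strand. No matches of the 2 kinds overlap here.
Hmgcs1, chr13:119690101-119690400, plus strand: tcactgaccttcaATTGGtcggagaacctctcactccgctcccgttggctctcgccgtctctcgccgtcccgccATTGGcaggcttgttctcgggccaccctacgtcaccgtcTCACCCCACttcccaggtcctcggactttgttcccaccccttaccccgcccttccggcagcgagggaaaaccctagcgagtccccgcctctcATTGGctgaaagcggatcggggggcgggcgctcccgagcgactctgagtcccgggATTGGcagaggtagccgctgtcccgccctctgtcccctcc
Srebf2, chr15:82147019-82147318, plus strand: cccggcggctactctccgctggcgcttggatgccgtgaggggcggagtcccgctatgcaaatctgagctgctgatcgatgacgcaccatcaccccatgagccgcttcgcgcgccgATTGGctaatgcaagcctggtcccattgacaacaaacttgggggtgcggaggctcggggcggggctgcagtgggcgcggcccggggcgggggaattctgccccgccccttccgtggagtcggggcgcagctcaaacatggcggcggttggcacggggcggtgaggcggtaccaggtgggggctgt
Tm7sf2, chr19:6067801-6068100, minus strand: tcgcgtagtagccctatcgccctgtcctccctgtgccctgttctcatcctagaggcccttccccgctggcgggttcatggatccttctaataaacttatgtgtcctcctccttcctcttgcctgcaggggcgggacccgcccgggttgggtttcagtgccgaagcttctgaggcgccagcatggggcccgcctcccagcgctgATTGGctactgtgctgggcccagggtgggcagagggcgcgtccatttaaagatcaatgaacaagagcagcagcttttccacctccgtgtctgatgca
The Hmgcs1 window held 1 match to the sterol regulatory element, with its first base 137 bases before the start, and 4 CCAAT boxes. The windows of Srebf2 and Tm7sf2 held 1 CCAAT box each, at 135 and 47 bases before the start. GC boxes, searched as GGGCGG on both strands and left in lower case, numbered 3 in Hmgcs1, 5 in Srebf2 and 2 in Tm7sf2. The Lpin1 window, chr12:16610917-16611216 on the minus strand, lies inside the gene span given above and not at its outer end, and held none of the 3 motifs. Over 32851 windows of the same length, 1.24% held the sterol regulatory element, 37.4% a CCAAT box and 35.7% a GC box. These matches describe letters in the windows and are no measure of binding.

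The first comparison asked how treated cells differ from non-treated cells. Ratios of 5 of the 6 genes lay below 0 on all 4 arrays, and Tm7sf2 alone lay above 0 on all 4. Over all features 7.59% lay below 0 on every treated array and 6.48% above 0 on every one. None of the 6 passed adjusted p = 0.05 with limma on these arrays, where 0% of all 15915 features were called. At an unadjusted p under 0.05 there were 5 of the 6 genes, beside 988 features, or 6.21%. The median fitted log2 ratio of the 6 was -0.44 and that of all features 0.009. A lower ratio in whole cultures cannot tell fewer cells of a type from less RNA per cell.

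Hmgcs1 had log2 ratios of -0.12, -0.86, -0.96 and -0.73 on treated replicates 1 to 4. Replicate 1 lay nearest 0 and the other arrays were close together. The fitted log2 ratio of treated to non-treated cells was -0.67 ± 0.17 (SE, n = 4; 95% interval -1.13 to -0.20), a ratio of 0.63, with adjusted p = 0.79 in limma. Its probes differed: probe 17455 averaged -0.63 ± 0.15 and probe 19404 -0.70 ± 0.62 (SD, n = 4), and on replicate 1 probe 19404 was at 0.22 while probe 17455 was at -0.46.

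Fdps, further down the same pathway, had log2 ratios of -0.43, -0.62, -0.58 and -0.46 on treated replicates 1 to 4. All 4 arrays were close to each other, with an SD of 0.09. The fitted log2 ratio was -0.52 ± 0.10 (SE; 95% interval -0.81 to -0.24), a ratio of 0.70, with adjusted p = 0.79 in limma.

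Tm7sf2 went the other way, with log2 ratios of 0.28, 0.52, 0.72 and 0.11 on treated replicates 1 to 4. Every array was above 0, though they spread over a wide range. The fitted log2 ratio of treated to non-treated cells was 0.41 ± 0.15 (SE; 95% interval -0.007 to 0.82), with adjusted p = 0.79 in limma, and that interval includes 0. It was 0.26 without replicate 3 and 0.56 without replicate 4.

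Srebf2, the regulator, had log2 ratios of -0.22, -0.47, -0.39 and -0.32 on treated replicates 1 to 4. The fitted value was -0.35 ± 0.10 (SE; 95% interval -0.64 to -0.06; adjusted p = 0.79 in limma), with all arrays on the same side of 0.

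Scd2 had log2 ratios of -0.39, -0.47, -0.72 and -0.63 on treated replicates 1 to 4, lower on the arrays with the treated RNA in Cy3. The fitted value was -0.55 ± 0.10 (SE; 95% interval -0.82 to -0.28; adjusted p = 0.79 in limma). Of the 6 genes it had the lowest p, rank 66 of 15915. Both probes were below 0 on all 4 arrays, with probe 3889 at -0.68 ± 0.09 and probe 5552 at -0.42 ± 0.21 (SD, n = 4).

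Lpin1 had log2 ratios of -0.34, -0.34, -0.20 and -0.20 on treated replicates 1 to 4. This was the smallest of the 6 in size, with a fitted value of -0.27 ± 0.09 (SE; 95% interval -0.53 to -0.007; adjusted p = 0.79 in limma). Its probes averaged -0.43, -0.26 and -0.12, and the last of them, probe 13196, was below 0 on only 2 of the 4 arrays.

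Calls depended on which arrays were fitted together. In 1 limma fit over the treated and time course arrays, which has more residual degrees of freedom, all 6 genes passed, at adjusted p of 0.014 for Hmgcs1, 0.025 for Fdps, 0.027 for Tm7sf2, 0.0066 for Srebf2, 0.0068 for Scd2 and 0.022 for Lpin1, beside 758 of 15915 features (4.76%). The SE in that fit was smaller for 5 genes (Srebf2 0.06, against 0.10 alone) and larger for Fdps (0.12, against 0.10 alone). That fit shares 1 spread per gene between arrays whose SD over spots differed, 0.62 to 0.64 on treated and 0.24 to 0.36 on time course arrays. Such a shared spread can be too small for the treated arrays, so these calls are not taken as results. The part of the SE and of the degrees of freedom in these calls was not tested. Turning the sign of the Cy3 arrays reversed 4 values: Hmgcs1 to 0.18, Scd2 to 0.12, Srebf2 to 0.008 and Tm7sf2 to -0.01. Fdps at -0.004 and Lpin1 at -0.07 kept their sign but were then near 0.

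The 43 measured pathway genes outside these 6 gave 28 ratios below 0, a median of -0.10 and none past adjusted p = 0.05 in limma, with 7 at an unadjusted p under 0.05. Of all features 47.9% had a fitted ratio below 0 and 6.21% an unadjusted p under 0.05. Among mevalonate genes, Hmgcs1 and Fdps included, the median was -0.31 over 6 measured of 9, with 4 below 0. Apart from those genes and Mvd, the list held Mvk at -0.17, Pmvk at 0.23 and Ggps1 at 0.01. Mvd, which makes isopentenyl diphosphate, had -0.45 ± 0.10 (SE; range over arrays -0.65 to -0.26; adjusted p = 0.79 in limma). The sterol enzymes, Tm7sf2 included, had a median of -0.12, with 6 of 9 below 0. Cyp51, which removes the C14 methyl group of lanosterol just before the step of Tm7sf2, had -0.38 ± 0.10 (SE, adjusted p = 0.79 in limma). These values show that the sign of Tm7sf2 was not that of Cyp51 and of most sterol genes measured here. Lbr, which has the same C14 reductase activity as Tm7sf2, was also above 0, at 0.20 ± 0.11 (SE; adjusted p = 0.81 in limma), as was Ebp at 0.025. The interval of Tm7sf2 itself included 0.

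Fatty acid genes, Scd2 included, had 10 of 13 ratios below 0 and a median of -0.13. Acaca, acetyl-CoA carboxylase 1, which makes malonyl-CoA for fatty acid synthesis, was furthest from 0 at -1.04 ± 0.14 (SE; adjusted p = 0.79 in limma; range -1.48 to -0.55), measured on 3 arrays. The glycerolipid and phospholipid list, Lpin1 included, had 9 of 14 below 0 and a median of -0.06. Lpin3, a second lipin, had 0.45 ± 0.11 (SE, adjusted p = 0.79 in limma), opposite in sign to Lpin1. SREBP control genes, Srebf2 included, had 2 of 4 and efflux genes 2 of 3 below 0, with medians of -0.04 and -0.10.

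**Figure D1:**
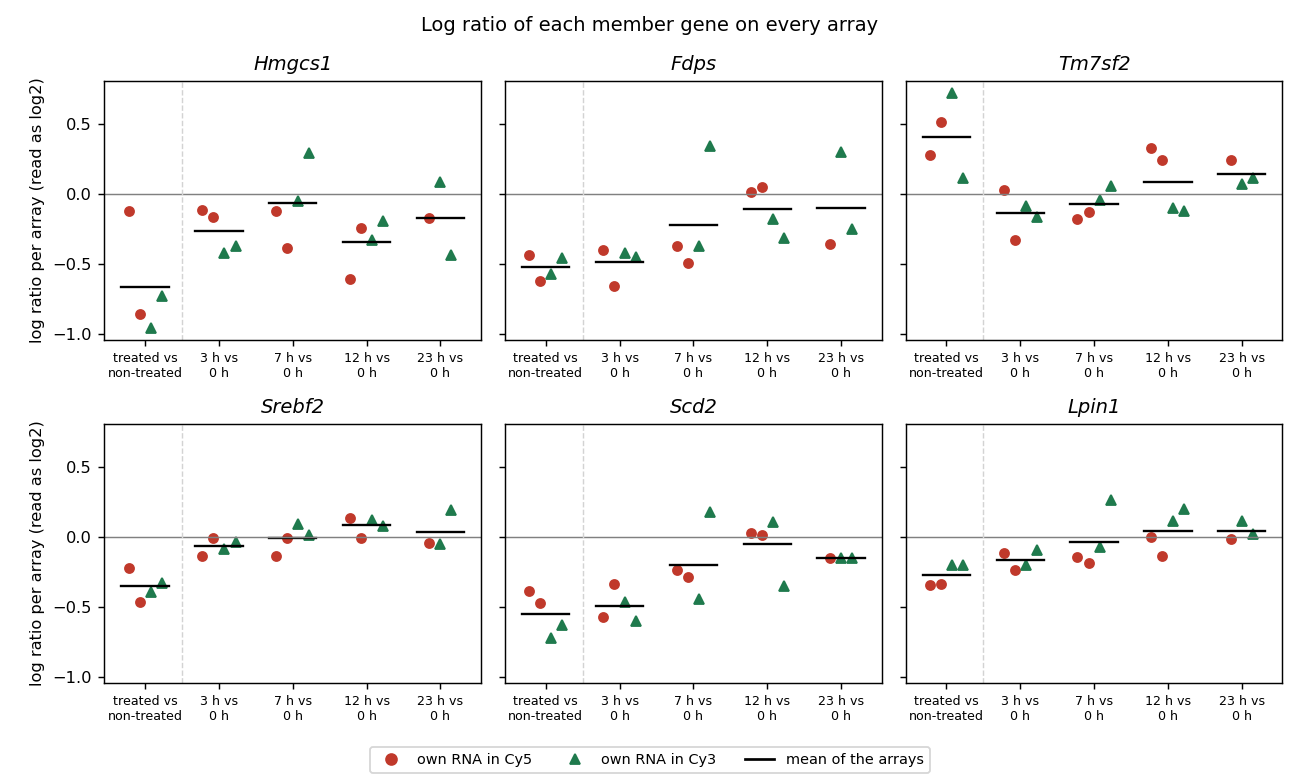
Log ratio (read as log2, own RNA over reference) of each gene on every array, by comparison, with arrays ordered by replicate, circles for own RNA in Cy5, triangles for own RNA in Cy3 and a bar for the mean of the arrays. Treated arrays were below 0 for 5 genes and above 0 for Tm7sf2, and 7 h replicate 4 was above 0 for all 6.

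The time course asked how treated cells at 3, 7, 12 and 23 h differ from treated cells at 0 h; all 4 times share that reference. At 3 h, with the deposited signs, the fitted ratios of all 6 genes were below 0, furthest for Scd2 and Fdps. None passed adjusted p = 0.05 with limma, where 0% of all 16108 features were called. Unadjusted p was under 0.05 for 4 of the 6 (Scd2, Fdps, Lpin1 and Hmgcs1), beside 1736 features, or 10.8%. On all 4 arrays 5 genes lay below 0, with 10.5% of all features doing so. The median fitted log2 ratio was -0.21 for the 6 and 0 for all features.

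Scd2 had log2 ratios of -0.57, -0.33, -0.46 and -0.60 at 3 h, replicates 1 to 4, all well below 0 in both dyes. The fitted value was -0.49 ± 0.09 (SE; 95% interval -0.69 to -0.29), or 0.71 of the 0 h level, with adjusted p = 0.43 in limma and rank 4 of 16108 by p. Both probes were below 0 on every array, at -0.63 ± 0.09 for probe 3889 and -0.36 ± 0.18 for probe 5552 (SD, n = 4).

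Fdps had log2 ratios of -0.40, -0.66, -0.42 and -0.45 at 3 h, replicates 1 to 4, again with both dyes alike. Its fitted value was -0.48 ± 0.13 (SE; 95% interval -0.76 to -0.21), with adjusted p = 0.43 in limma and rank 77. Without 7 h replicate 4 and 23 h replicate 3 the values at 3 h were the same but the shared spread was smaller: Fdps and Scd2 then both fell at 3 h, at adjusted p = 0.034 each, beside 16 of 16108 features (0.0993%). Changing the sign of 7 h replicate 4 alone gave adjusted p = 0.020 for Scd2 and 0.11 for Fdps in limma. With the Cy3 signs changed, the 3 h values were 0.039 for Scd2 and -0.045 for Fdps.

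Hmgcs1 had log2 ratios of -0.11, -0.16, -0.42 and -0.37 at 3 h, replicates 1 to 4. The arrays with the 3 h RNA in Cy3 were lower than those with it in Cy5. Its fitted value was -0.27 ± 0.11 (SE; adjusted p = 0.45 in limma), and the value was 0.13 with the Cy3 signs changed. Probe 17455 averaged -0.42 ± 0.13 and probe 19404 -0.12 ± 0.34 (SD, n = 4), the second with arrays on both sides of 0.

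Lpin1 had log2 ratios of -0.11, -0.24, -0.20 and -0.09 at 3 h, replicates 1 to 4, and a fitted value of -0.16 ± 0.06 (SE; adjusted p = 0.44 in limma). All arrays were below 0, as were the means of its 3 probes (-0.11, -0.12 and -0.25). Srebf2 had -0.13, -0.005, -0.09 and -0.04, a fitted -0.07 ± 0.05 (SE; adjusted p = 0.64). Tm7sf2 had 0.03, -0.33, -0.09 and -0.17, a fitted -0.14 ± 0.08 (SE; adjusted p = 0.52). Both intervals included 0, from -0.18 to 0.05 for Srebf2 and from -0.31 to 0.03 for Tm7sf2. With the Cy3 signs changed, Lpin1 was -0.015, Srebf2 -0.004 and Tm7sf2 -0.012.

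Set beside each other, the fitted log2 ratios of treated to non-treated cells and of 3 h to 0 h were -0.52 and -0.48 for Fdps and -0.55 and -0.49 for Scd2. They were -0.67 and -0.27 for Hmgcs1, -0.35 and -0.07 for Srebf2, -0.27 and -0.16 for Lpin1, and 0.41 and -0.14 for Tm7sf2. With arrays scaled to the same spread the pairs were -0.32 and -0.55 for Fdps and -0.34 and -0.60 for Scd2, so the likeness of these pairs depends on the scale of the treated arrays. The references differ and the difference between the comparisons was not tested.

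Of the 44 other pathway genes measured at 3 h, 32 had ratios below 0, with a median of -0.05 and none past adjusted p = 0.05 in limma. An unadjusted p under 0.05 was found for 5 of them. Of all features 50% had a fitted ratio below 0 and 10.8% an unadjusted p under 0.05. All 6 measured mevalonate genes, Hmgcs1 and Fdps included, were below 0 or rounded to 0 (Ggps1), with a median of -0.16. Of the rest of that list, Mvd was at -0.32, Mvk at -0.05 and Pmvk at -0.02. Sterol genes, Tm7sf2 included, had 7 of 9 below 0 and a median of -0.11. SREBP control genes, Srebf2 included, had 3 of 4 below 0, and efflux genes 2 of 3. Fatty acid genes, Scd2 included, had 10 of 13 below 0 but a median of only -0.02. Acly, ATP citrate lyase, which supplies cytosolic acetyl-CoA to both routes, had -0.20 ± 0.07 (SE; adjusted p = 0.43).

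Glycerolipid and phospholipid genes, Lpin1 included, had 10 of 15 below 0 at 3 h and a median of -0.05. Pcyt2, of phosphatidylethanolamine synthesis, had -0.34 ± 0.14 (SE; adjusted p = 0.45 in limma; range -0.49 to -0.16). Chpt1, a cholinephosphotransferase, had -0.33 ± 0.12, and Agpat1, an acyltransferase that makes phosphatidate, had -0.32 ± 0.12 (SE; adjusted p = 0.44 and 0.43 in limma); neither lay below 0 on all arrays.

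At 7 h the 6 fitted ratios were between -0.22 and -0.008, and no gene lay on 1 side of 0 on all 4 arrays; of all features 6.82% lay below 0 on all 4 and 5.79% above. None passed in limma, where 0% of 16087 features were called, and none had an unadjusted p under 0.05, against 7.04% of features. Replicate 4 was above 0 for all 6 genes, and its median over them was 0.22, against -0.16, -0.24 and -0.06 on replicates 1 to 3.

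Fdps had log2 ratios of -0.37, -0.50, -0.37 and 0.35 at 7 h, replicates 1 to 4. Scd2 had -0.24, -0.29, -0.44 and 0.18, and Hmgcs1 had -0.12, -0.39, -0.05 and 0.29. In each, replicate 4 alone was above 0. Lpin1 showed the same, at -0.15, -0.19, -0.07 and 0.27, and Tm7sf2 too, at -0.18, -0.13, -0.04 and 0.06. Srebf2 stayed near 0, at -0.13, -0.009, 0.10 and 0.02.

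The fitted log2 ratio at 7 h was -0.22 ± 0.13 for Fdps and -0.20 ± 0.09 for Scd2 (SE; adjusted p = 0.74 and 0.71 in limma). Without 7 h replicate 4 and 23 h replicate 3, Fdps was -0.42 ± 0.08 (SE; adjusted p = 0.056) and Scd2 -0.34 (adjusted p = 0.15), beside 77 of 16116 features called (0.478%) and none of the 6. Hmgcs1 was then -0.19, Tm7sf2 -0.14, Lpin1 -0.12 and Srebf2 -0.001. Leaving out replicate 4 alone gave -0.41 for Fdps and -0.34 for Scd2.

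The other pathway genes at 7 h had 13 of 43 ratios below 0, against 50.5% of all features, and a median of 0.02. None passed in limma and 4 had an unadjusted p under 0.05, against 7.04% of features. Elovl1, a fatty acid elongase, had -0.21 ± 0.08 and Lpin2 0.21 ± 0.08 (SE; adjusted p = 0.66 each in limma). Elovl5, another elongase, had 0.15 ± 0.07 (SE; adjusted p = 0.71). Apoe, a lipid carrier, had 0.44 ± 0.19 (SE; adjusted p = 0.68) with an SD of 0.61 over arrays. List medians ran from -0.04 for the mevalonate genes to 0.03 for the glycerolipid and phospholipid genes.

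At 12 h the median of the 6 genes was -0.001 and Hmgcs1 stood apart from the rest. None of the 6 passed in limma, where 3 of 16089 features were called (0.0186%). Hmgcs1 alone had an unadjusted p under 0.05, against 6.25% of features, and alone lay below 0 on all 4 arrays, against 7.01%. No gene of the 6 lay above 0 on all 4, against 7.53%. Without 7 h replicate 4 and 23 h replicate 3 the 12 h calls numbered 40 of 16089 (0.249%), again with none of the 6.

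Hmgcs1 had log2 ratios of -0.61, -0.24, -0.33 and -0.20 at 12 h, replicates 1 to 4. The fitted value was -0.35 ± 0.11 (SE; 95% interval -0.58 to -0.11; adjusted p = 0.65 in limma). The value rested mostly on 1 probe: probe 19404 averaged -0.55 ± 0.43 and probe 17455 -0.14 (SD, n = 4).

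Fdps at 12 h had 0.02 and 0.05 on the arrays with the 12 h RNA in Cy5 and -0.18 and -0.31 on those with it in Cy3. Tm7sf2 was likewise split by dye, at 0.33 and 0.24 against -0.10 and -0.12. For both genes the sign depended on the dye, and the fitted values were -0.11 ± 0.13 and 0.09 ± 0.08 (SE). Scd2 had 0.03, 0.01, 0.11 and -0.35, with replicate 4 alone far below 0. Lpin1 had 0.004, -0.13, 0.11 and 0.20, and Srebf2 had 0.14, -0.004, 0.12 and 0.08. Their fitted values, -0.05 for Scd2, 0.05 for Lpin1 and 0.09 for Srebf2, had intervals that included 0.

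Other pathway genes at 12 h had 14 of 43 ratios below 0, against 48.9% of all features, and a median of 0.04. None passed adjusted p = 0.05 in limma and 3 had an unadjusted p under 0.05, against 6.25% of features. All 4 measured SREBP control genes, Srebf2 included, were above 0, with a median of 0.09. Lbr, a nuclear envelope protein that carries the same C14 reductase activity as Tm7sf2, had 0.24 ± 0.07 (SE; adjusted p = 0.62; range 0.07 to 0.35). Agpat3 had 0.26 ± 0.11 and Chpt1 0.29 ± 0.12 (SE; adjusted p = 0.76 and 0.77), above 0 on all arrays, and Agpat5 had 0.10 ± 0.05 (SE; adjusted p = 0.82).

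At 23 h, with 3 arrays, fitted values lay between -0.19 and 0.16 and none of the 6 passed in limma, where 0% of 16116 features were called. None had an unadjusted p under 0.05, against 3.35% of features. Scd2 was below 0 on all 3 arrays, against 9.42% of features, and Tm7sf2 above 0 on all 3, against 10%.

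Scd2 had log2 ratios of -0.15, -0.15 and -0.15 at 23 h, replicates 1, 3 and 4, each a mean of 2 probes that differed. Probe 3889 averaged -0.26 ± 0.12 and lay below 0 on all 3 arrays. Probe 5552 averaged -0.04 ± 0.11 (SD, n = 3) and lay below 0 on 1 of them. Tm7sf2 had 0.24, 0.07 and 0.11 on the same replicates. The fitted values were -0.15 ± 0.11 for Scd2 and 0.16 ± 0.09 for Tm7sf2 (SE; adjusted p above 0.99 for both). Fdps had -0.36, 0.30 and -0.25 and Hmgcs1 -0.17, 0.09 and -0.44, both with replicate 3 alone above 0. Without 7 h replicate 4 and 23 h replicate 3, 2 arrays were left at 23 h. The fitted log2 ratio was then -0.30 for Fdps (adjusted p = 0.35 in limma) and -0.30 for Hmgcs1, beside 59 of 16041 features called (0.368%) and none of the 6. Lpin1 had -0.013, 0.12 and 0.03 and Srebf2 -0.04, -0.05 and 0.19, with fitted values of 0.02 for each; without both arrays Srebf2 was 0.08 and Lpin1 0.006.

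The other pathway genes at 23 h had 19 of 44 ratios below 0, against 49.5% of all features, and a median of 0.009. None passed adjusted p = 0.05 in limma and none had an unadjusted p under 0.05, against 3.35% of features. Lbr had 0.13 ± 0.08, Acsl3, an acyl-CoA synthetase, 0.16 ± 0.10, and Elovl6, an elongase, -0.07 ± 0.06 (SE; adjusted p above 0.99 for each). Pcyt1a, of phosphatidylcholine synthesis, had 0.43 with an SD of 1.08 over arrays.

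Between 23 h and 3 h all 6 fitted differences were above 0, with a median of 0.24 against 0 over all features. None passed in limma, where 0% of 16087 features were called, and 2 of the 6 had an unadjusted p under 0.05, against 5.47% of features. The log2 difference was 0.36 ± 0.20 for Fdps, 0.35 ± 0.14 for Scd2 and 0.29 ± 0.12 for Tm7sf2 (SE; adjusted p = 0.87 each). It was 0.18 ± 0.10 for Lpin1, 0.09 ± 0.08 for Srebf2 and 0.08 ± 0.17 for Hmgcs1 (SE). With the Cy3 signs changed 5 of the 6 turned below 0, among them Fdps at -0.18 and Scd2 at -0.06. Without 7 h replicate 4 and 23 h replicate 3, 12 of 16024 features were called (0.0749%), none of them among the 6, and Fdps was 0.18, Srebf2 0.14 and Hmgcs1 -0.036. Of 44 other pathway genes 28 were above 0 in this difference, with a median of 0.07, while 50% of all features were below 0. The genes of lowest p were Agpat1 at 0.43 ± 0.18, Pcyt2 at 0.43 ± 0.22, Lpin2 at -0.22 ± 0.13 and Chpt1 at 0.33 ± 0.19 (SE; adjusted p = 0.87 each in limma).

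An F test of any difference among the 4 times passed for none of the 6 genes in limma, with 0% of 16024 features called. With all arrays Scd2 alone had an unadjusted p under 0.05, against 6.55% of features, with adjusted p = 0.76; the adjusted p of the others ran from 0.76 to 0.83. Without the 2 arrays that stand apart, 0.0438% of features were called, none of them among the 6, and both Scd2 and Fdps had an unadjusted p under 0.05, with adjusted p = 0.46 and 0.49 in limma. For Scd2 the fitted log2 ratios were -0.49, -0.20, -0.05 and -0.15 at 3, 7, 12 and 23 h. For Fdps they were -0.48, -0.22, -0.11 and -0.13, for Lpin1 -0.16, -0.03, 0.05 and 0.02, and for Srebf2 -0.07, -0.008, 0.09 and 0.02. With the deposited signs these 4 genes had their lowest fitted value at 3 h. Tm7sf2 also did, at -0.14, -0.07, 0.09 and 0.16, whereas Hmgcs1, at -0.27, -0.07, -0.35 and -0.19, had its lowest at 12 h. That held for the mean of Hmgcs1 probe 19404 (-0.55 at 12 h) and not for probe 17455. The means of probe 17455, at -0.42, -0.21, -0.14 and -0.17, were lowest at 3 h. With the Cy3 signs changed, none of the 6 was lowest at 3 h: Fdps was then at -0.045, -0.21, 0.14 and -0.22 and Scd2 at 0.039, -0.066, 0.069 and -0.025 at 3, 7, 12 and 23 h. Between neighbouring times the 95% interval of the difference held 0 for all 6 genes from 7 h to 12 h and from 12 h to 23 h. From 3 h to 7 h it held 0 for 5 of them and not for Scd2, whose 7 h value was above its 3 h value by 0.30 ± 0.13 (SE; 0.01 to 0.58). With both arrays that stand apart left out, that difference was 0.15 ± 0.11 (SE; -0.09 to 0.39), and the intervals without 0 were instead those from 7 h to 12 h for Fdps, 0.31 ± 0.11 (SE; 0.08 to 0.54), and Scd2, 0.29 ± 0.11 (SE; 0.05 to 0.53).

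**Figure D2:**
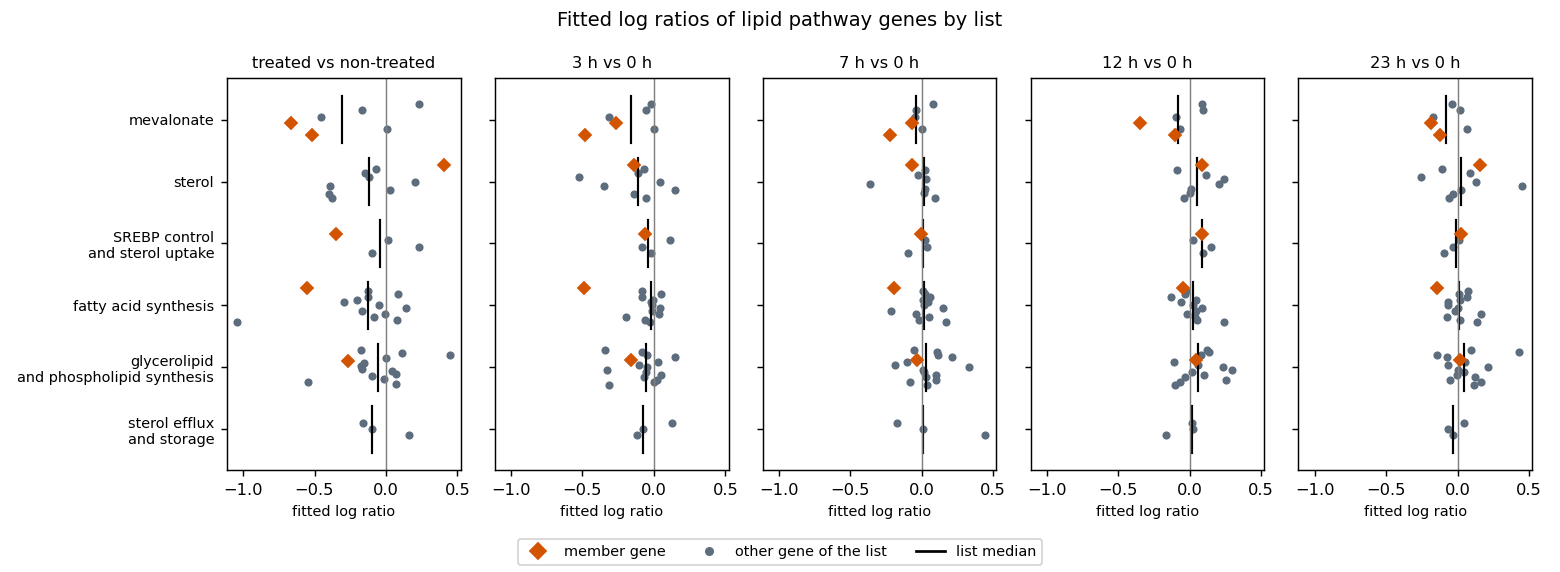
Fitted log ratio (read as log2) of each measured gene of 6 lipid lists, 1 panel per comparison, with diamonds for the 6 genes, circles for other list genes and a bar for the list median. At 3 h Scd2 and Fdps lay furthest below 0 in their lists, at -0.49 and -0.48, and by 12 h most list medians were near or above 0.

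The same arrays were also split by the dye of the own RNA, which gives no independent view of the genes. The mean over Cy5 arrays and the mean over Cy3 arrays had the same sign for 6 of 6 genes in the treated group and for 6 of 6 at 3 h. In the treated group that match had to follow, because each gene had the same sign on every array. At 3 h it likewise had to follow for every gene except Tm7sf2, whose sign differed between arrays. The match was 2 of 6 at 7 h, 2 of 6 at 12 h and 3 of 6 at 23 h. Over all features the match was 47.4% in the treated group and 55.6% at 3 h. It was 49.8% at 7 h, 43.7% at 12 h and 45.7% at 23 h. In the treated group Fdps averaged -0.53 with its own RNA in Cy5 and -0.52 in Cy3, and Srebf2 -0.34 and -0.36. Hmgcs1 averaged -0.49 and -0.84, and Tm7sf2 0.40 and 0.42. At 3 h Fdps averaged -0.53 and -0.44 and Scd2 -0.45 and -0.53.

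**Figure D3:**
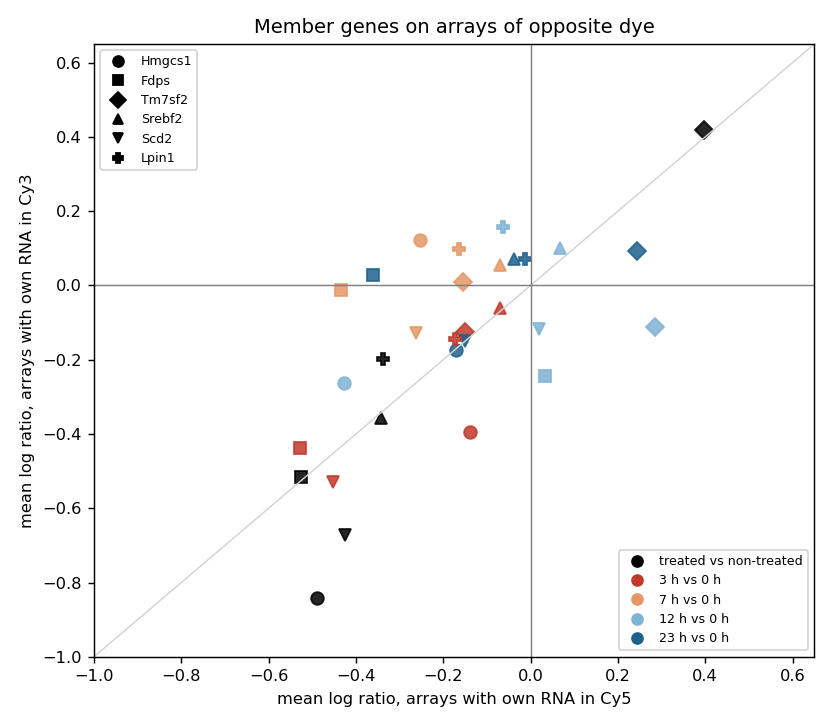
Mean log ratio (read as log2) of each gene on arrays with the own RNA in Cy3 against that on arrays with it in Cy5; symbols mark genes, colours mark comparisons, and the grey diagonal marks equal values. Treated and 3 h points of all 6 genes lay in the quadrants of equal sign, while most 7 h and 12 h points did not.

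Probes of the same gene did not always move alike. Over 19 arrays the Scd2 probes had the same sign on 14 arrays and a median difference of 0.20, and the Hmgcs1 probes on 13 arrays and a median difference of 0.29. Among Lpin1 probes, 2843 and 9367 shared their sign on 15 arrays, and probe 13196 shared it with either of them on 11. Probe 19404 of Hmgcs1 varied most, with SDs of 0.62 on treated and 0.43 on 12 h arrays.

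**Figure D4:**
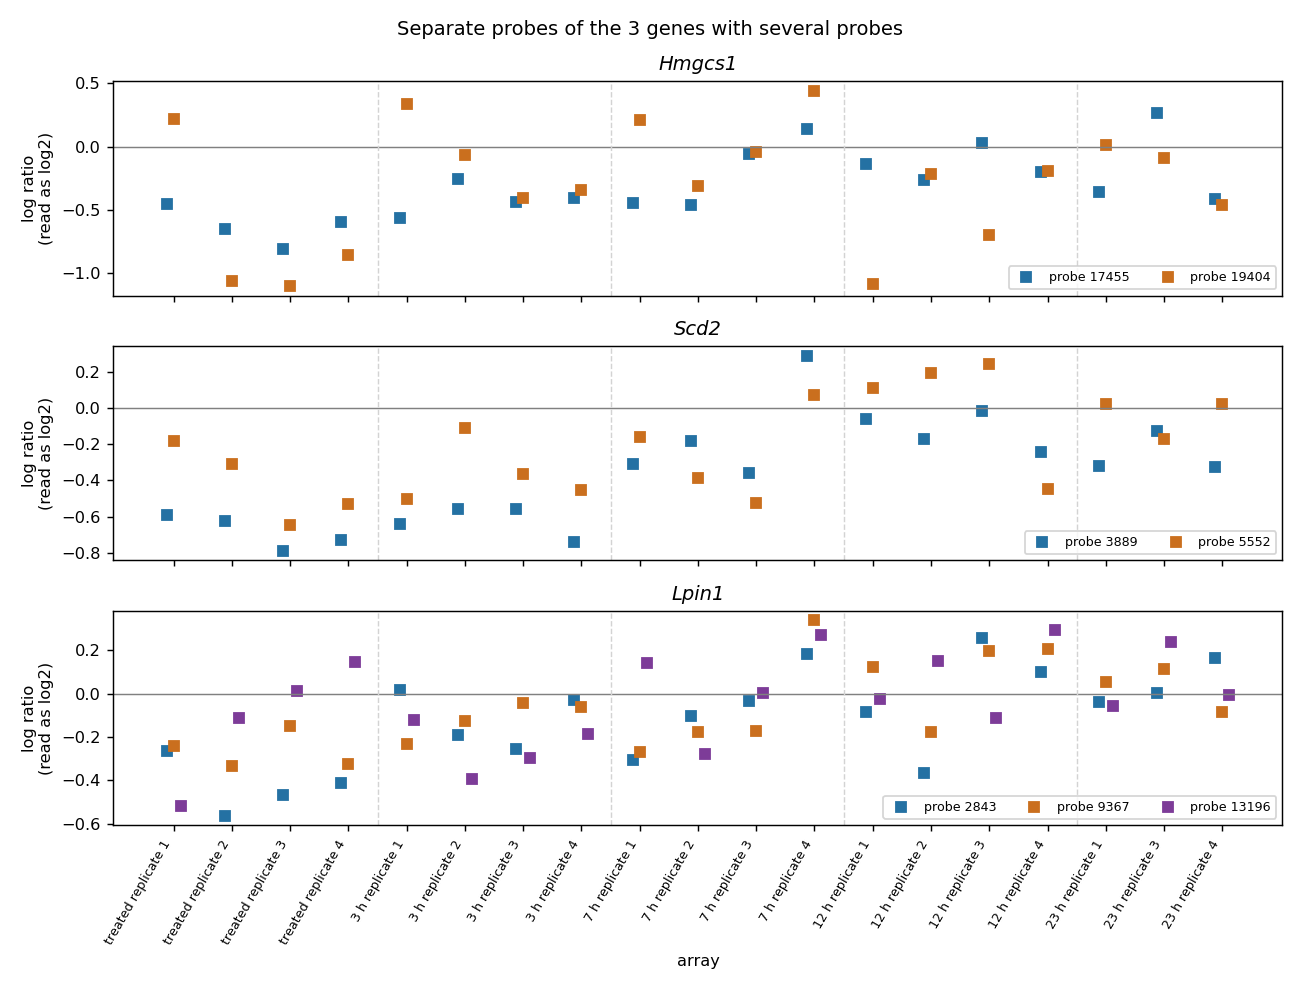
Log ratio (read as log2) of every probe of Hmgcs1, Scd2 and Lpin1 on each of the 19 arrays, in group and replicate order, with dashed lines between groups. Both Scd2 probes were below 0 on all treated and 3 h arrays, while Hmgcs1 probe 19404 ranged widely on the treated and 12 h arrays.

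Across the 19 arrays, after each dye's mean was removed, Fdps and Scd2 had r = 0.80 (0.75 over the 15 time course arrays), Scd2 and Lpin1 0.77 and Fdps and Lpin1 0.74. Over all 19 arrays Tm7sf2 ran the other way from Hmgcs1 (r = -0.55) and Srebf2 (r = -0.54). Over the 15 time course arrays these were -0.07 and 0.35. Tm7sf2 with Fdps was at 0.04 over all arrays and 0.68 over the time course. Hmgcs1 and Srebf2 had r = 0.51 over all arrays and -0.44 over the time course. The arrays share references and group means, so these are descriptions only.

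Of 9397 genes compared, the most alike in pattern to Scd2 were Zfyve1 (r = 0.92) and Bnip3 (r = 0.89), and to Fdps they were Vamp2 (r = 0.88) and Bnip3 (r = 0.86). Lpin1 was most like Selenbp2 (r = 0.89) and Zfyve1 (r = 0.85). Bnip3, Selenbp2 and Zfyve1 had ratios further from 0 than the lipid genes: Bnip3, a mitochondrial protein induced by hypoxia, had -1.38 in treated cells and -1.38 at 3 h. Selenbp2 had -1.48 and -1.06, and Zfyve1, a protein of lipid droplets and the endoplasmic reticulum, -1.20 and -0.84, none past adjusted p = 0.05 in limma.

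Tm7sf2 was most like Hdac4, a histone deacetylase (r = 0.92 over 18 arrays), and Creb3l4 (r = 0.89). Srebf2 was most like Zc3hav1l (r = 0.86) and Kdm4b, a histone demethylase (r = 0.82), and Hmgcs1 like Got1, an aspartate aminotransferase (r = 0.83), and Rin3 (r = 0.80). Over the 15 time course arrays Kdm4b with Srebf2 was at r = 0.23 and Rin3 with Hmgcs1 at 0.36, lower than over all 19. For Scd2 with Zfyve1 it was 0.91 and for Fdps with Vamp2 0.90.

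Markers of blood cell types were measured beside these results, and their part in them was not tested. Neutrophil granule genes had medians of -0.16 in treated cells and -0.13, -0.13, -0.36 and -0.31 at 3, 7, 12 and 23 h, with 8 of 10, 9 of 10, 8 of 10, 8 of 10 and 9 of 10 below 0. Monocyte genes had medians of -0.28, -0.13, -0.16, -0.26 and -0.14 over 4 measured genes. The 9 progenitor genes had medians between -0.03 and 0.03 in all 5 comparisons. Leaving out 7 h replicate 4 and 23 h replicate 3, the neutrophil medians were -0.13, -0.31, -0.36 and -0.81 at 3, 7, 12 and 23 h, with 0, 2, 4 and 7 of the 10 genes past adjusted p = 0.05 in limma. Among those called at 23 h, where 2 arrays were left, was Ltf, which encodes lactoferrin, at -1.26 ± 0.11 (SE; adjusted p = 0.00069 in limma). With all 3 arrays at 23 h Ltf was at -0.56 ± 0.34 (SE; adjusted p above 0.99 in limma), and its arrays ran from -1.34 to 0.97. With the same 2 arrays left out, the monocyte medians were -0.13, -0.30, -0.26 and -0.32, with 1, 1, 2 and 2 of 4 genes called.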

How the data were processed

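Expression was measured on 19 two-colour arrays, with the own RNA of treated FDCPmix cells against a reference. Per the labels' protocols, cDNA from total RNA carried Cy3 or Cy5 by indirect labelling. The authors deposited 1 log ratio per spot, read here as log2. Its base, numerator and normalization: not given in the sources used here. No intensities were used; precision is limited by the number of arrays. The value repeated on 8 to 29 spots of an array was set to missing, arrays were centred on their median, and probes of a gene were averaged. Of 20205 probes, 13891 had 1 symbol, 5 several and 6309 none, per the platform annotation; 13855 matched RefSeq (GRCm38.p6).

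Limma 3.58.1 in R 4.3.3 (lmFit, eBayes) was fitted with a dye term to the 4 treated arrays alone and to the 15 time course arrays together. A feature needed 3 values in a group of 4 arrays or 2 in the group of 3. Benjamini-Hochberg adjustment ran over all features, with a threshold of 0.05. Groups came from the source labels. The 6 genes, the lists and the tests were chosen with earlier results of these data known, and fitting the treated arrays alone was among these choices. Named pathway genes were the 4 of lowest p in each comparison, and for treated cells also Lbr and Ebp, named for their sign. In treated cells and at 3 h all measured mevalonate genes were named too. Genes alike in pattern were the 2 of highest correlation with each gene on at least 18 arrays. On simulated data the treated fit called 1% of 100 genes changed by a log2 of 1 and 59% of those changed by 2, among 15915 features. The 3 h fit called 96% and 100% among 16108. False calls numbered 4 in the treated and 9 in the 3 h fit. The simulated noise was independent between arrays and had no dye effect. Changes smaller than a log2 of 1, as fitted for the 6 genes, were not simulated. Replicate numbers did not pair the arrays: deviations of same-numbered time course arrays correlated at a mean of 0.03 over 21 pairs. Alternatives changed the normalization, the filter, the fit, the signs and the arrays used.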

Additional observations from a re-analysis of the deposited data

Results flagged for a closer look

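Fdps at 7 h was flagged because 1 array lay far from the other 3: 7 h replicate 4 had a log2 ratio of 0.35, against -0.50 to -0.37 on replicates 1 to 3. The gap divided by the range was 0.85, above Dixon's 95% value of 0.83 for 4 samples. This was 1 of 24 groups of 4 arrays tested, and chance flags about 1 in 20. The same array was above 0 for all 6 genes, and its repeated extreme value had the sign opposite to its dye label; their part in the value was not tested.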

How the results depend on the processing

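Of the alternatives run, the reading of the signs moved the most values of the 6 genes. With the Cy3 signs turned, the median of the 6 genes was 0.002 in treated cells, -0.008 at 3 h and -0.06 for 23 h against 3 h, and 1 feature was called among the times. Turned in treated cells were Hmgcs1 (0.18), Tm7sf2 (-0.01), Srebf2 (0.008) and Scd2 (0.12); at 3 h Hmgcs1 (0.13) and Scd2 (0.039); at 12 h Fdps (0.14), Srebf2 (-0.018), Scd2 (0.069) and Lpin1 (-0.11); at 23 h Srebf2 (-0.059) and Lpin1 (-0.063). For 23 h against 3 h they were Hmgcs1 (-0.14), Fdps (-0.18), Srebf2 (-0.055), Scd2 (-0.064) and Lpin1 (-0.049). The other 19 of 36 values kept their sign, though Fdps was then -0.004 in treated cells and -0.045 at 3 h, and Lpin1 -0.07 and -0.015.

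Under 1 fit over all arrays 758 features were called in treated cells, against 0, and all 6 genes passed. Its shared spread can be too small for the treated arrays. The treated median was -0.26 with arrays scaled to the same spread and -0.29 after quantile normalization. Calls at 12 h, 3 in the fit reported, numbered 9 with array weights and 0 with the repeated extreme kept, with values on every array, or with the 12 h arrays alone. Quantile normalization called 2 features among the times. One probe per gene gave Lpin1 -0.024 at 12 h.

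Without 7 h replicate 4 and 23 h replicate 3 the calls were 16 at 3 h, 77 at 7 h, 40 at 12 h, 59 at 23 h, 12 for 23 h against 3 h and 7 among the times, and Hmgcs1 was -0.19 at 7 h and -0.036 for 23 h against 3 h. In an alternative added after seeing the data, turning the sign of 7 h replicate 4 gave 19 calls at 3 h, 77 at 7 h, 4 for 23 h against 3 h and 4 among the times.

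Leaving out 1 array at a time gave 0 calls in treated cells, at 3 h and for 23 h against 3 h, 0 to 12 at 7 h (12 without replicate 4, 3 without replicate 3), 5 to 10 at 12 h, 0 to 1 at 23 h and 0 to 6 among the times. Of 156 such values of the 6 genes 7 turned: Hmgcs1 at 7 h (-0.18 to 0.038, turned without replicate 2), Srebf2 at 7 h (-0.034 to 0.026, without replicate 1), Lpin1 at 7 h (-0.11 to 0.008, without replicate 3), Scd2 at 12 h (-0.11 to 0.056, without replicate 4), Srebf2 at 23 h (-0.044 to 0.078, without replicate 4), Lpin1 at 23 h (-0.014 to 0.053, without replicate 1) and Hmgcs1 for 23 h against 3 h (-0.036 to 0.23, without 23 h replicate 3). Causes were not tested.

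With the replicate block in place of the dye term, 29 of 30 time course values kept their sign and side of the threshold and Lpin1 at 23 h was -0.002; the numbers are shared only as numbers, and 7 of 15 arrays correlated best with their own. No paired analysis was possible for treated cells because the block left no degrees of freedom. Dropping the centring or the dye term changed no sign of the genes followed and no side of the adjusted threshold. In treated cells some unadjusted limma p crossed 0.05. That of Tm7sf2 went from 0.052 to 0.047 without centring and 0.031 without the dye term, so its 95% interval then left out 0. That of Lpin1 went from 0.046 to 0.051 without centring and 0.039 without the dye term.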
